A study of Mus musculus with 6 samples.

Results

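The genes described here copy chromosomal DNA and supply its nucleotides. They were 37 named genes, and a row of the expression table was taken as a member where its gene symbol equalled a listed name. Of the 37, 34 symbols were found, in 35 of 46958 rows. Dut had a pair of rows, of which the lesser read 1.32 and 1.31 FPKM in wild type with 20(OH)Cholesterol and 20(OH)7DHC and was listed at 0 in the other 4 libraries. Leaving out that row, 34 rows averaged at least 1 FPKM over the libraries and were tested among 12673 rows. Mcm7 appeared only in a row merged with the microRNA genes Mir25 and Mir93, whose value cannot be assigned to Mcm7, and Cdt1 and Gins2 were not analysed here. Cdc6, Orc1 and Pola1 averaged under 1 FPKM in the libraries labelled knockout and so passed the filter through wild type. The 31 other members averaged at least 1 FPKM in both genotypes.

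DNA replication starts at origins that the origin recognition complex, Cdc6 and Cdt1 load with the ring-shaped MCM helicase before S phase, a step called licensing. In S phase, Cdc45 and the GINS complex join the MCM ring to form the active CMG helicase, and DNA polymerases, the sliding clamp PCNA and its loader then copy the unwound strands. Ribonucleotide reductase, thymidylate synthase and thymidine kinase supply deoxynucleotides. Many of these genes are known targets of E2F transcription factors and are transcribed mainly in cycling cells, so in cultured fibroblasts they are commonly read as proliferation genes.

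Messenger RNA was measured in dermal fibroblasts isolated from newborn mice aged 1 to 2 days, with cells of different animals pooled and used at early passage. One genotype was labelled wild type for the nuclear receptor RORγ (RORgamma+/+) and the other was labelled as its knockout (RORgamma-/-); both are as the labels state and were not established from the values. All cells had been grown in serum with mouse FGF and antibiotic, and all were then treated for 24 h with 100 nM of a hydroxysterol in 0.1% ethanol and 10% charcoal-stripped fetal bovine serum. Each genotype received 20(OH)L3, a hydroxylumisterol, 20(OH)Cholesterol, or 20(OH)7DHC, a hydroxy-7-dehydrocholesterol, in 1 library each, which makes 6 libraries and 3 per genotype. Ethanol-only cells were not analysed here. Because animals were pooled and each library stands for a whole genotype and sterol, p-values do not measure the spread between animals. The test given further on takes out sterol differences that both genotypes share. Its p-values for genotype rest on what remains, which is technical differences and sterol differences that are unlike between the genotypes.

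Estimated depth was 12400000 to 13100000 fragments in wild type, and 9000000 (20(OH)L3), 7700000 (20(OH)Cholesterol) and 13200000 (20(OH)7DHC) fragments in the libraries labelled knockout. In sum, though not each of them, fibroblast markers were abundant in every library, and 8 of 10 listed markers had rows. They summed to 7750 to 8090 FPKM in wild type and to 5050 to 6810 FPKM in the libraries labelled knockout. By the limma test given further on, 4 of the 8 were lower in the latter. Dcn, a proteoglycan of dermal fibroblasts, read 1254, 1489 and 1148 FPKM in wild type and 21.2, 5.74 and 16.7 FPKM in the libraries labelled knockout. The collagen gene Col1a2 read 881, 1062 and 988.2 FPKM in wild type against 51.5, 182.5 and 95.6 FPKM. Lum read 10.7, 19.3 and 10.2 against 0, 0.0687 and 0.04 FPKM. Col1a1, Pdgfrb and Thy1 were also below wild type in every library labelled knockout. Vim, the filament protein vimentin, was at 3345, 2844 and 3097 FPKM in wild type and at 4074, 5014 and 4153 FPKM in the libraries labelled knockout. It was the largest part of the sum in every library. The matrix gene Fn1 was at 916.6, 960.9 and 916.1 against 593.1, 935.9 and 1890 FPKM. Of the markers of other cells, 2 of 10 keratinocyte, 3 of 9 leukocyte, 0 of 8 endothelial, 0 of 7 melanocyte and 2 of 7 muscle genes averaged at least 1 FPKM. Keratinocyte markers (10 of 10 with rows) summed to 26.3 to 35 FPKM in wild type and 21.3 to 72.8 FPKM in the libraries labelled knockout, mostly Perp and Krt10. Leukocyte markers (9 of 10) summed to 10.6 to 13.7 and 7.65 to 14.5 FPKM, with Adgre1 and Cd3e listed at 0 throughout. Endothelial markers (8 of 8) summed to 1.56 to 2.90 and 2.00 to 4.56 FPKM, with Cldn5 at 0, and melanocyte markers (7 of 7) to 1.10 to 1.64 and 0.134 to 4.20 FPKM, with Dct at 0. Muscle markers (7 of 8) summed to 7.12 to 12.7 and 7.37 to 54.8 FPKM, mostly Mylpf. The Y-linked gene Eif2s3y read 35.02, 31.3 and 26.9 FPKM in wild type and 1.41 FPKM, then 0 and 0, in the libraries labelled knockout. What part these differences have in the results below was not tested.

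Short stretches of promoter are shown first, because E2F factors are the known shared regulators of these genes. RefSeq promoter windows on GRCm38.p6, from 250 bases before to 50 bases after a transcript start, were given for 32 of the 37 genes in 37 windows. The following stretches of 60 bases, 5′ to 3′ on the gene's strand, hold E2F letters upstream of a RefSeq transcript start. They belong to 4 genes that fell in the libraries labelled knockout by the test given further on (Mcm5, Pola1, Prim1 and Cdc6). Stretches of 2 genes that did not pass the test are also shown (Chaf1a and Rfc3). RefSeq and GENCODE starts can differ, and the marked letters of Prim1, Cdc6 and Rfc3 lie within the GENCODE gene coordinates. Pola1 has 3 upstream matches, not all of which lie in its stretch. Capitals mark the 7 letters TTCGCGC or TTGGCGC or TTCCCGC or TTGCCGC on either strand, and a longer run of capitals is a pair of overlapping matches.
Mcm5, chr8:75109320-75109379, plus strand: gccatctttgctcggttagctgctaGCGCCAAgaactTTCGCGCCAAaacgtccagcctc
Pola1, chrX:93632257-93632316, minus strand: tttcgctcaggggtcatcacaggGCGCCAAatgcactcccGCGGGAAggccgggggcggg
Prim1, chr10:128015155-128015214, plus strand: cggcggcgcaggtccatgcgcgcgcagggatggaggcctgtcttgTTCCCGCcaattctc
Cdc6, chr11:98907973-98908032, plus strand: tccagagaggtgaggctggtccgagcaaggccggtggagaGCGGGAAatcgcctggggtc
Chaf1a, chr17:56040329-56040388, plus strand: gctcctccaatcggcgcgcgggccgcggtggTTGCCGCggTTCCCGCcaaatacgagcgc
Rfc3, chr5:151651209-151651268, minus strand: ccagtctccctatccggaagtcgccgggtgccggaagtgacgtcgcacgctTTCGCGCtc

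E2F letters were found in 25 of the 37 windows (67.6%, 22 genes), against 9.57% of all 32851 windows of the same length. At least 2 matches were found in 27.0% of the members' windows and in 1.18% of all windows. Of the windows of genes that fell, 7 of 12 held E2F letters (58.3%). Of the windows of genes tested and not past the threshold, 15 of 22 did (68.2%). The latter genes include some that read below wild type in every library labelled knockout, such as Rrm1 and Chaf1a (limma adjusted p = 0.0533 and 0.0538). Whether matches go with the fall cannot be read from a split at the threshold and was not tested. No E2F letters were found in the windows of Tk1, Pcna, Cdc45, Mcm10 and Mcm2, which fell, or of E2f1, Tyms, Dut, Orc6 and Rfc5. The letters CCAAT, the core of the NF-Y box, were found in 83.3% of the windows of genes that fell, in 40.9% of those not past the threshold and in 37.4% of all windows. The letters TTTGAA of the cell-cycle homology region were found in 10.8% of the members' windows and in 17.9% of all. Median GC content was 58.3% in the members' windows and 52.7% in all windows, and the shares were not adjusted for it. These are matches of letters and were not tested as binding sites, and Uhrf1, Fen1, Lig1 and Mcm7 each count with more than 1 window.

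**Figure D1:**
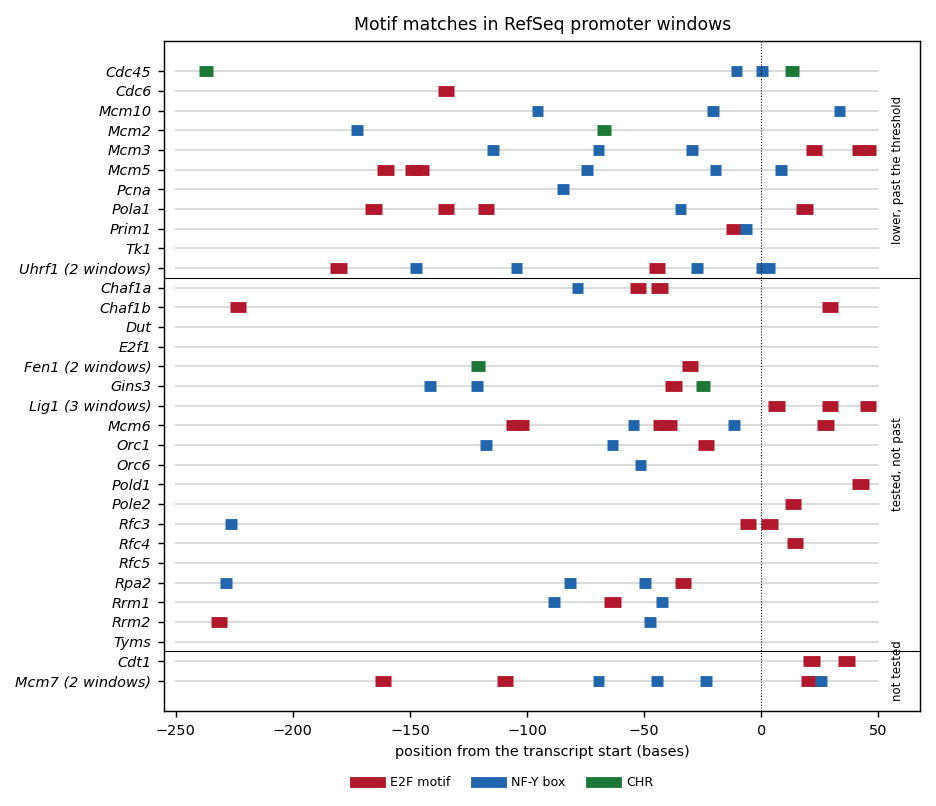
Matches of 3 motifs in the promoter windows of 32 genes, by position from the transcript start in bases; genes are grouped by whether they fell, were tested and did not pass, or were not tested. E2F matches stand in 22 of the 32 genes, in the upper as in the middle group.

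Across the members, 12 of 34 fell in the libraries labelled knockout and 0 rose. Those that fell were Cdc6 (licensing), Cdc45, Mcm10, Mcm2, Mcm3, Mcm4 and Mcm5 (helicase), Pola1, Prim1 and Pcna (DNA synthesis), Tk1 (nucleotide salvage) and Uhrf1 (copying of DNA methylation). The test was limma on log2(FPKM + 1) with sterol as a second term, at a Benjamini-Hochberg adjusted p of 0.05 over all 12673 rows. Over all rows, 6.64% were lower and 2.43% were higher at the same threshold. At an unadjusted p of 0.05, 21 members were lower and 0 higher, against 2230 lower and 2002 higher of all 12673 rows. The median difference, labelled knockout minus wild type, was -0.91 on the log2 scale over the 34 members and 0.00 over all rows, and 31 of 34 differences were below 0. Among the 31 members averaging at least 1 FPKM in both genotypes, 10 fell and the median was -0.89. The number depended on single libraries: with any 1 of the 4 libraries of 20(OH)L3 or 20(OH)Cholesterol left out, which leaves 1 residual degree of freedom, limma called 0 members, with 18 to 21 lower at an unadjusted p of 0.05 and a median of -1.01 or -0.92. Without the wild-type or the labelled knockout 20(OH)7DHC library it called 11 and 10.

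In 22 of the 34 members, all 3 libraries labelled knockout read below all 3 wild-type libraries, and in 0 members all read above. Over all rows these shares were 22.9% and 20.2%. Among the 31 members averaging at least 1 FPKM in both genotypes, all 3 libraries labelled knockout read below wild type in 19. The median FPKM of the 34 members was 18.2, 20.0 and 18.5 in wild type and 10.5, 11.1 and 6.77 in the libraries labelled knockout, in the order 20(OH)L3, 20(OH)Cholesterol, then 20(OH)7DHC, which is kept throughout. Wild-type libraries lay close together, with a median ratio of highest to lowest of 1.17 over the members, against 1.79 in the libraries labelled knockout. Over all rows the same ratios were 1.22 and 1.89. The labelled knockout library with 20(OH)7DHC was the lowest of the 6 libraries for 20 of 34 members, the one with 20(OH)Cholesterol for 8 and the one with 20(OH)L3 for 6. No wild-type library was the lowest for any member. The highest of the 6 was a wild-type library for 8, 11 and 4 members and a labelled knockout library for 8, 3 and 0, in the same order. These tallies are not given here over all rows. Mki67, a marker of cycling cells, read 4.45, 4.90 and 3.65 FPKM in wild type and 0.341, 0.741 and 0.606 FPKM in the libraries labelled knockout. In these bulk samples, fewer cycling cells and less of each transcript per cycling cell cannot be told apart.

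**Figure D2:**
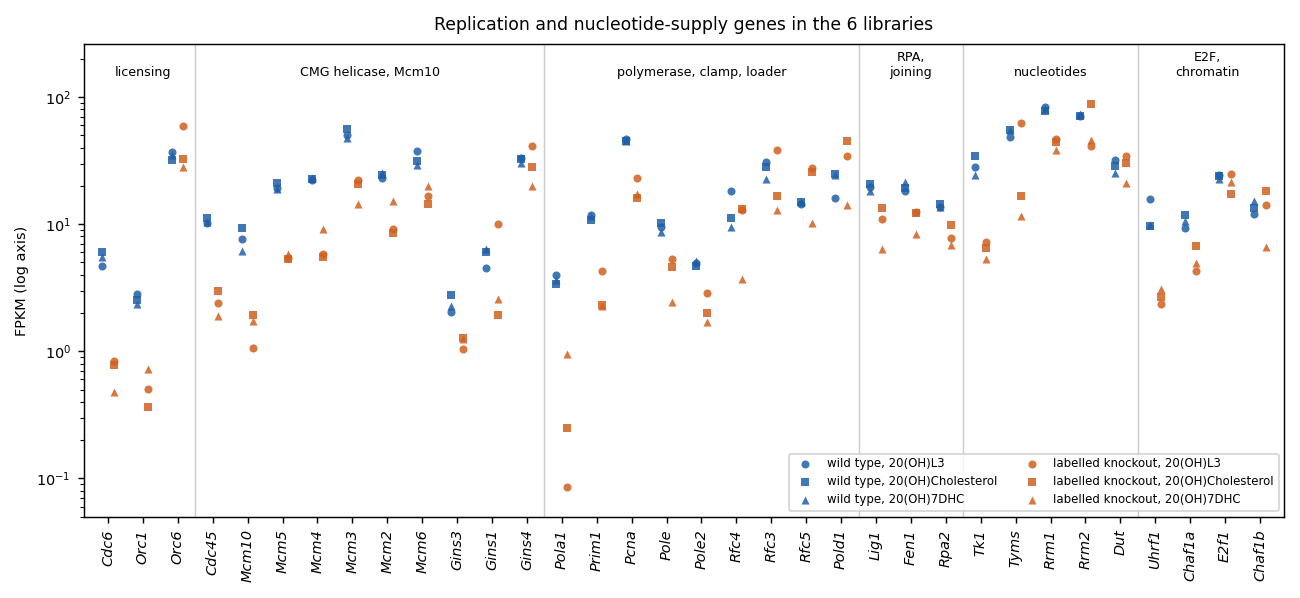
FPKM of the 34 tested members in each of the 6 libraries on a log axis, by function, with colour for genotype and marker shape for sterol. The 3 wild-type points of most genes lie close together, and in 22 genes all 3 libraries labelled knockout lie below them.

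Among the 3 measured licensing genes, Cdc6 fell, Orc1 was lower in each library without passing the threshold, and Orc6 overlapped between genotypes. Cdc6 (chr11:98907801-98923940), the ATPase that brings MCM rings to origins, read 4.70, 6.02 and 5.52 FPKM in wild type and 0.839, 0.782 and 0.474 FPKM in the libraries labelled knockout. The groups were far apart, and each labelled knockout library was under 1 FPKM. The mean was 5.41 ± 0.665 against 0.698 ± 0.196 FPKM (SD over the 3 libraries of a genotype, which differ in sterol), a 7.75-fold lower level and a difference of -1.92 ± 0.25 on the log2 scale (SE, as for all differences that follow; limma adjusted p = 0.0174). Orc1 (chr4:108579423-108614833), the largest subunit of the origin recognition complex, read 2.81, 2.52 and 2.37 FPKM in wild type and 0.508, 0.366 and 0.719 FPKM in the libraries labelled knockout. These groups did not overlap, and the difference was -1.23 ± 0.28 (limma adjusted p = 0.0628). In its thinnest library Orc1 rested on an estimated 7.9 fragments. Orc6 (chr8:85299632-85308278), the smallest subunit, read 36.8, 32.0 and 34.9 FPKM in wild type and 59.3, 32.4 and 28.0 FPKM in the libraries labelled knockout. It was the most abundant of the 3, and its labelled knockout values lay above, level with and below wild type. Its difference was 0.13 ± 0.25 (limma adjusted p = 0.743).

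Of the 10 measured helicase genes, 6 fell and 0 rose, where 6.64% of all rows were lower and 2.43% higher. Their median difference was -1.25. In 8 of the 10 all libraries labelled knockout read below wild type, where 22.9% of all rows did. Cdc45 (chr16:18780447-18811987), the CMG subunit that joins the MCM ring when an origin fires, read 10.2, 11.2 and 10.3 FPKM in wild type and 2.42, 3.0 and 1.89 FPKM in the libraries labelled knockout. The groups were far apart. The difference was -1.77 ± 0.20 (limma adjusted p = 0.0121), from a mean of 10.6 ± 0.563 to 2.44 ± 0.556 FPKM. Mcm10 (chr2:4989714-5012791), which is needed for the assembled helicase to start unwinding, read 7.58, 9.29 and 6.14 FPKM in wild type and 1.06, 1.92 and 1.73 FPKM in the libraries labelled knockout. Its groups were also apart, with a difference of -1.76 ± 0.24 (limma adjusted p = 0.0195).

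Of the MCM ring itself, 5 subunits were measured, and 4 of them fell, where 6.64% of all rows were lower. The median difference was -1.39 over the 5. Mcm5 (chr8:75109569-75128439) read 19.2, 21.1 and 18.9 FPKM in wild type and 5.45, 5.36 and 5.83 FPKM in the libraries labelled knockout. It was the steadiest of the 5 among the libraries labelled knockout, whose highest value was 1.09 times the lowest. Its difference was -1.66 ± 0.18 (limma adjusted p = 0.0106). Mcm3 (chr1:20802968-20820312), in wild type the most abundant helicase gene, read 50.1, 56.2 and 47.4 FPKM in wild type and 22.2, 20.9 and 14.4 FPKM in the libraries labelled knockout. Its difference was -1.39 ± 0.20 (limma adjusted p = 0.021). Mcm4 fell by 1.63 and Mcm2 fell by 1.11 on the log2 scale (limma adjusted p = 0.0171 and 0.0466; for Mcm2, 0.0664 with a filter of 0.1 FPKM), and both were highest among the libraries labelled knockout with 20(OH)7DHC, at 9.15 and 15.3 FPKM. Mcm6 was lower in all 3 libraries labelled knockout, at 14.5 to 19.9 FPKM against 29.2 to 37.7 FPKM, with a difference of -0.90 and an adjusted p of 0.0616. The merged row that holds Mcm7 read 22.3, 24.8 and 150.3 FPKM in wild type and 29.5, 19.4 and 13.5 FPKM in the libraries labelled knockout, and no value is drawn from it for Mcm7.

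Of the 3 measured GINS genes, 0 passed the limma test, and 0 reached an unadjusted p of 0.05. Their median difference was -0.43. Gins3 was low, at 2.05 to 2.76 FPKM in wild type and 1.04 to 1.28 FPKM in the libraries labelled knockout, without overlap (adjusted p = 0.168). Gins1 (chr2:150905400-150931280) read 4.54, 6.05 and 6.34 FPKM in wild type and 10.1, 1.92 and 2.60 FPKM in the libraries labelled knockout. With 20(OH)L3 the labelled knockout library was the highest of all 6, and with the other sterols it was below wild type. Gins4 was the most abundant of the 3, at 30.2 to 33.0 FPKM against 19.8 to 41.0 FPKM, and overlapped. With the length trend removed, the differences of the short transcripts Gins1 and Gins4 went from -0.43 to -0.84 and from -0.16 to -0.48 (limma adjusted p = 0.249 and 0.13).

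**Figure D3:**
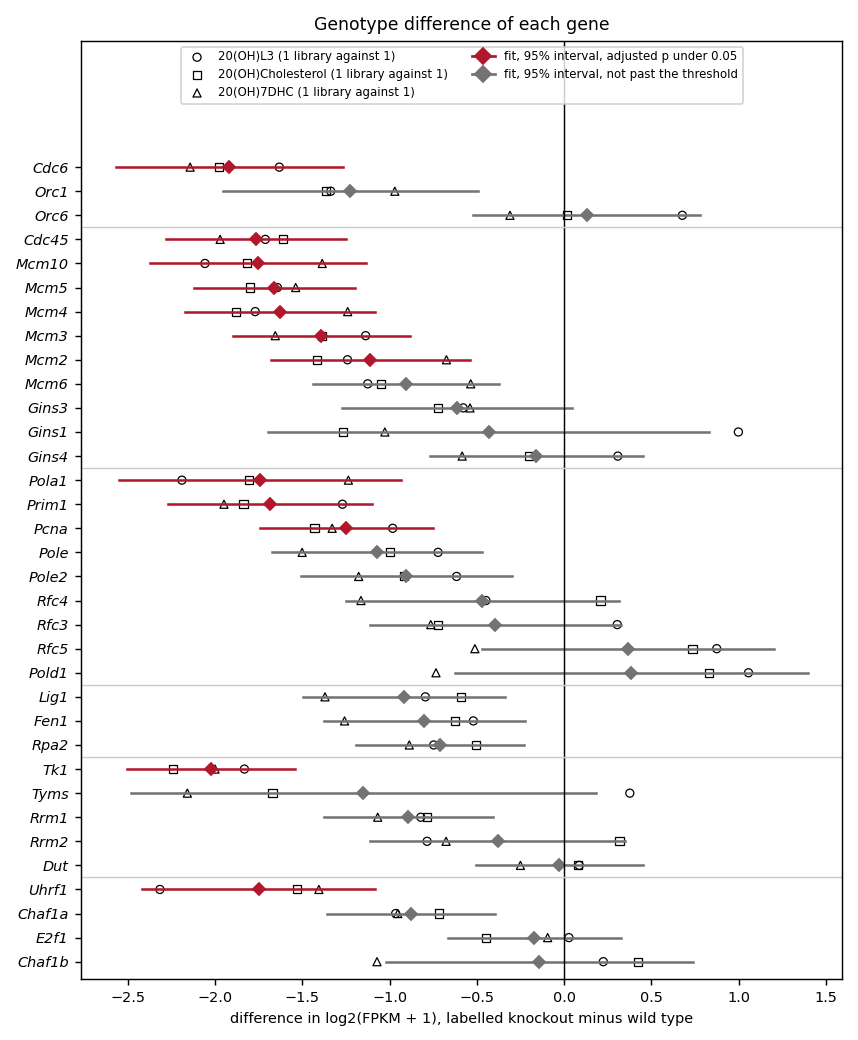
Difference in log2(FPKM + 1), labelled knockout minus wild type, of the 34 tested members, with the limma estimate and its 95% interval as a diamond and a line, and the differences of single libraries within each sterol as open markers. Intervals in red belong to the 12 genes that fell; Gins1, Rfc5 and Pold1 have open markers more than 0.5 from 0 on both sides.

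Of 9 genes for polymerases, clamp and clamp loader, 3 fell and 0 rose, where 6.64% of all rows were lower and 2.43% higher. Their median difference was -0.91. Those that fell were Pola1 and Prim1, of the polymerase alpha and primase complex that lays down the first primer, and the clamp gene Pcna. Pola1 (chrX:93304767-93632155), its catalytic polymerase subunit, read 3.96, 3.38 and 3.62 FPKM in wild type and 0.0854, 0.250 and 0.960 FPKM in the libraries labelled knockout. The last 3 values spread 11.2-fold and the lowest rests on an estimated 4 fragments, yet all were below wild type. Its mean FPKM was 8.45-fold lower, and its difference was -1.75 ± 0.32 (limma adjusted p = 0.0376). With a pseudocount of 0.1 the difference was -3.19 and the adjusted p by limma 0.0508, so that Pola1 was no longer called. Prim1 (chr10:128015168-128030037), the small primase subunit, read 11.7, 10.8 and 11.6 FPKM in wild type and 4.27, 2.29 and 2.26 FPKM in the libraries labelled knockout. Its groups did not overlap, and its difference was -1.69 ± 0.23 (limma adjusted p = 0.0188). Pcna (chr2:132249162-132253314), the sliding clamp and in wild type the most abundant gene of the class, read 46.7, 45.2 and 45.1 FPKM in wild type and 23.1, 16.1 and 17.3 FPKM in the libraries labelled knockout. Its difference was -1.25 ± 0.19 (limma adjusted p = 0.0261). Pcna has pseudogene copies in the annotation, and how reads shared with them were counted is not given in the sources used here.

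Both members of the leading-strand polymerase epsilon were lower in all 3 libraries labelled knockout without passing the threshold. The catalytic subunit Pole read 8.74 to 10.3 FPKM in wild type and 2.44 to 5.33 FPKM in the libraries labelled knockout (difference -1.08, limma adjusted p = 0.0555). The second subunit Pole2 read 4.65 to 5.12 and 1.71 to 2.87 FPKM (difference -0.91, limma adjusted p = 0.0764). The small accessory subunits Pole3 and Pole4, read among the other fork proteins, had differences of 0.001 and 0.63, with overlapping groups and limma adjusted p-values of 0.999 and 0.172. Pold1, the catalytic subunit of polymerase delta, which copies mainly the lagging strand, and the 3 clamp loader genes did not share this pattern. Pold1 (chr7:44532746-44548849) read 16.01, 24.8 and 24.4 FPKM in wild type and 34.4, 44.9 and 14.2 FPKM in the libraries labelled knockout. It was above wild type with 20(OH)L3 and 20(OH)Cholesterol and below it with 20(OH)7DHC, and its difference was 0.38 ± 0.40 (limma adjusted p = 0.517). Rfc5 (chr5:117378103-117389047), a small clamp loader subunit, read 14.5, 15.0 and 14.9 FPKM in wild type and 27.4, 25.7 and 10.1 FPKM in the libraries labelled knockout. It took the same order as Pold1, with a difference of 0.37 ± 0.33 (limma adjusted p = 0.457). Rfc3 read 22.7 to 31.1 FPKM in wild type and 12.9 to 38.6 FPKM in the libraries labelled knockout, and Rfc4 read 9.55 to 18.1 and 3.71 to 13.1 FPKM. Their groups overlapped, and their limma adjusted p-values were 0.356 and 0.322.

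The 3 genes for single-strand binding and for joining Okazaki fragments, the short pieces of the lagging strand, were lower in all 3 libraries labelled knockout by smaller amounts. None passed the limma test, and 3 of 3 were lower at an unadjusted p of 0.05, where 2230 of all 12673 rows were. Lig1 (chr7:13277283-13311433), the ligase that seals the fragments, read 19.7, 20.7 and 18.2 FPKM in wild type and 10.9, 13.4 and 6.43 FPKM in the libraries labelled knockout. Its difference was -0.92 ± 0.23 (adjusted p = 0.0695 by limma). Fen1 (chr19:10199132-10204169), the nuclease that trims their flaps, read 18.2, 19.4 and 21.4 FPKM in wild type and 12.4, 12.2 and 8.36 FPKM in the libraries labelled knockout. Its difference was -0.80 ± 0.23 (adjusted p = 0.0861 by limma). Rpa2 (chr4:132768332-132778752), a subunit of the protein that coats single strands, read 13.7, 14.5 and 13.6 FPKM in wild type and 7.77, 9.91 and 6.89 FPKM in the libraries labelled knockout. Its difference was -0.71 ± 0.19 (adjusted p = 0.0782 by limma). In each of the 3 genes the labelled knockout library with 20(OH)7DHC was the lowest.

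Nucleotide supply was uneven: 1 of 5 genes fell and 0 rose, where 6.64% of all rows were lower and 2.43% higher. The median difference was -0.89. Tk1 (chr11:117815526-117826092), the cytosolic kinase that salvages thymidine, had the largest difference of the 34 members on the log2(FPKM + 1) scale, though with a pseudocount of 0.1 Pola1, Cdc6 and Mcm10 had larger ones. It read 28.2, 34.6 and 24.2 FPKM in wild type and 7.18, 6.51 and 5.29 FPKM in the libraries labelled knockout. The groups were far apart, and the mean went from 29.0 ± 5.23 to 6.33 ± 0.957 FPKM, 4.58-fold lower, with a difference of -2.03 ± 0.19 (limma adjusted p = 0.00714). Tyms (chr5:30058202-30073617), the synthase that makes thymidylate, read 48.2, 54.9 and 55.5 FPKM in wild type and 62.9, 16.5 and 11.6 FPKM in the libraries labelled knockout. With 20(OH)L3 the labelled knockout library was the highest of all 6, and with the other sterols it was far below wild type. Its difference was -1.15 ± 0.52 (limma adjusted p = 0.19), and the annotation holds a Tyms pseudogene with which reads may be shared.

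In wild type the ribonucleotide reductase subunits were the most abundant members. Rrm1 (chr7:102441695-102469771), the large subunit, read 82.9, 77.8 and 80.8 FPKM in wild type and 46.4, 44.6 and 38.004 FPKM in the libraries labelled knockout. Its groups did not overlap, and its difference was -0.89 ± 0.19 (limma adjusted p = 0.0533). Rrm2 (chr12:24708241-24714146), the small subunit that limits the enzyme in S phase, read 71.3, 70.9 and 74.0 FPKM in wild type and 40.9, 88.6 and 45.9 FPKM in the libraries labelled knockout. The value with 20(OH)Cholesterol was the highest of all 6, so the groups overlapped, with a difference of -0.38 ± 0.29 (limma adjusted p = 0.379). Dut, which removes dUTP, read 25.4 to 32.1 FPKM in wild type and 21.2 to 34.2 FPKM in the libraries labelled knockout in its main row, with a difference of -0.03 and a 95% interval of -0.51 to 0.45.

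Of the E2F and chromatin assembly genes, 1 of 4 fell and 0 rose, where 6.64% of all rows were lower and 2.43% higher. Their median difference was -0.53. Uhrf1 (chr17:56303321-56323486), which guides DNA methylation onto newly copied strands, read 15.7, 9.68 and 9.89 FPKM in wild type and 2.36, 2.69 and 3.11 FPKM in the libraries labelled knockout. Its groups were apart, and its difference was -1.75 ± 0.26 (limma adjusted p = 0.0235). Chaf1a (chr17:56040439-56072289), the large subunit of the histone chaperone that packs new DNA, read 9.31, 11.8 and 10.6 FPKM in wild type and 4.28, 6.79 and 4.96 FPKM in the libraries labelled knockout. These did not overlap either, but the adjusted p was 0.0538 (limma; difference -0.88 ± 0.19). E2f1 (chr2:154559407-154569892), itself an activator of replication genes, read 24.4, 23.8 and 22.8 FPKM in wild type and 24.9, 17.2 and 21.3 FPKM in the libraries labelled knockout. Its levels overlapped, with a difference of -0.17 and a 95% interval of -0.67 to 0.33 (limma adjusted p = 0.557). Chaf1b, the second chaperone subunit, read 12.0 to 15.1 FPKM in wild type and 6.65 to 18.2 FPKM in the libraries labelled knockout, with a difference of -0.14 (limma adjusted p = 0.79).

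Within a sterol each genotype has 1 library, so these differences are values without a test. Under 20(OH)7DHC, 34 of 34 members were below wild type, with a median difference of -1.12, and 20 were lower by at least 1 on the log2 scale, where 10.1% of all rows were. Under 20(OH)Cholesterol 27 of 34 were below, with a median of -0.96, and 16 were lower by at least 1, where 15.4% of all rows were. Under 20(OH)L3 24 of 34 were below, with a median of -0.79, and 13 were lower by at least 1, where 16.5% of all rows were. Among the 31 members averaging at least 1 FPKM in both genotypes, 18, 13 and 10 were lower by at least 1. These counts are for 20(OH)7DHC, 20(OH)Cholesterol and 20(OH)L3. The median over all rows lay between -0.02 and 0.00 under each sterol. Below wild type under all 3 sterols were 22 members. The other 12 were Gins1, Gins4, Tyms, Rrm2, Dut, Rfc3, Rfc4, Rfc5, Pold1, Orc6, E2f1 and Chaf1b, which had at least 1 labelled knockout library above its wild-type partner.

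Transcript length moved with the genotype difference under 2 of the 3 sterols. Over all protein-coding rows, transcripts under 1500 nt had a median difference of 0.88 under 20(OH)L3 and 0.75 under 20(OH)Cholesterol, and those from 3000 to under 6000 nt had medians of -0.26 and -0.28, whereas under 20(OH)7DHC these medians were 0.03 and -0.03. The median of the members lay below that of all rows in each length class and under each sterol. The 6 members under 1500 nt had medians of 0.31, -0.46 and -0.90 in the order of sterols above, and 1 of them, Tk1, fell. The 14 members from 1500 to under 3000 nt had medians of -0.68, -0.67 and -0.98, and 4 fell, while the 13 members from 3000 to under 6000 nt had medians of -1.24, -1.42 and -1.24, and 7 fell. Among longer genes there was only Pole. With each library's length trend removed, the medians over 33 members were -0.92, -1.18 and -1.16 with 26, 29 and 33 of them below 0, and limma called 14 members lower and 0 higher. The same rows with the trend kept gave 14 lower and 0 higher as well.

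**Figure D4:**
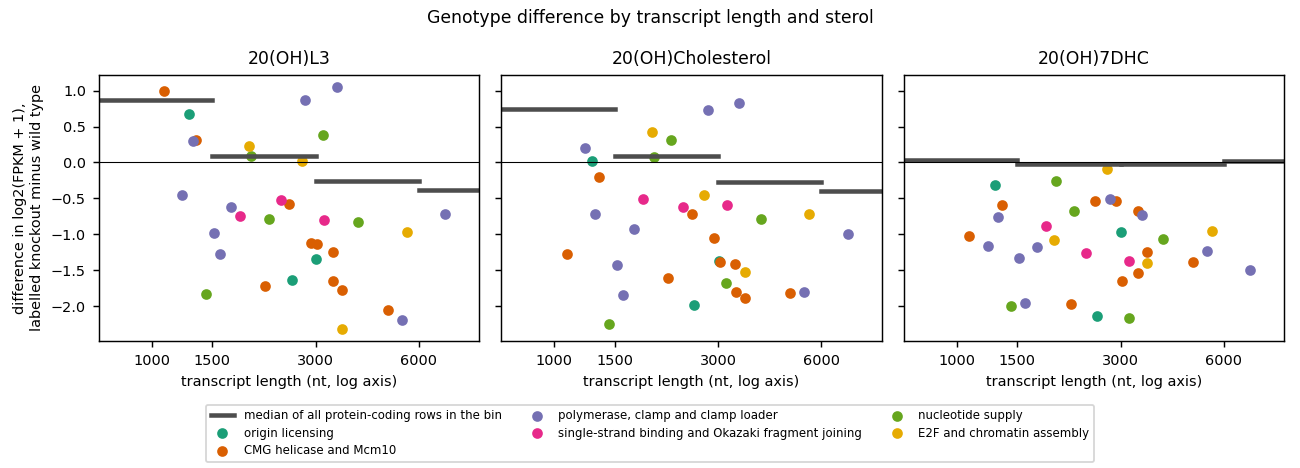
Difference in log2(FPKM + 1), labelled knockout minus wild type, of single libraries within each sterol against transcript length on a log axis, with members as points coloured by function and the median of all protein-coding rows of a length class as a grey bar. The grey bars slope under 20(OH)L3 and 20(OH)Cholesterol and lie near 0 under 20(OH)7DHC, and most points lie below the bar of their class.

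The sterols themselves were compared over both genotypes with the same model. 20(OH)7DHC has an additional double bond in a ring compared with 20(OH)Cholesterol, and 20(OH)L3 is a stereoisomer of 20(OH)7DHC. In 3 contrasts of the sterols, each at 100 nM and 24 h, limma called 0 of 34 members. Over all rows it called 0.0% for 20(OH)L3 against 20(OH)Cholesterol, and 0.0395% for 20(OH)7DHC against each of the others. At an unadjusted p of 0.05 the members numbered 0, then 2 for 20(OH)L3 against 20(OH)7DHC, and 0 for 20(OH)Cholesterol against 20(OH)7DHC. The 2 were the clamp loader genes Rfc4, higher with 20(OH)L3 by 1.21 on the log2 scale (95% interval 0.26 to 2.17, limma adjusted p = 0.701), and Rfc3, higher by 0.97 (0.09 to 1.85, limma adjusted p = 0.701). Median differences over the members were 0.02 for 20(OH)L3 minus 20(OH)Cholesterol, 0.19 for 20(OH)L3 minus 20(OH)7DHC and 0.21 for 20(OH)Cholesterol minus 20(OH)7DHC. The median 95% interval of a member, which is not adjusted for the number of rows, spanned 0.74 to either side. Larger differences were not called either, as with Rfc4 and Rfc3, and the sterols are not shown to act alike. The contrasts share libraries and are not independent.

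Other genes of the same pathway, from lists that hold none of the 37, were read from the same fit. Of 83 tested, 12 fell and 2 rose in the libraries labelled knockout, with a median difference of -0.24, where 6.64% of all rows were lower and 2.43% higher. In 37 of them the groups did not overlap with the libraries labelled knockout below, and in 10 with these above, where the shares over all rows were 22.9% and 20.2%. Among the 37 were Cdc7, Wdhd1, Clspn, Dscc1, Atad5, E2f7, E2f8 and Rbl1. These averaged under 1 FPKM in the libraries labelled knockout and so passed the filter through wild type. With any library of 20(OH)L3 or 20(OH)Cholesterol left out, limma called 0 of them in either direction, with 22 to 24 lower and 2 higher at an unadjusted p of 0.05.

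Where 6.64% of all rows were lower and 2.43% higher, 1 of 11 other origin and firing factors fell and 0 rose (median -0.52). This was Dbf4, the activator of the origin-firing kinase Cdc7, at 15.99, 12.7 and 15.04 FPKM in wild type and 6.44, 6.78 and 5.82 FPKM in the libraries labelled knockout, without overlap (difference -1.08, limma adjusted p = 0.037). Of 27 other fork proteins, 5 fell and 0 rose (median -0.51). Asf1b, a histone chaperone, read 16.7, 15.997 and 16.1 FPKM in wild type and 3.12, 4.63 and 3.03 FPKM in the libraries labelled knockout (difference -1.93, limma adjusted p = 0.0103). Clspn, a checkpoint mediator at the fork, read 5.28, 4.85 and 4.55 FPKM in wild type and 0.546, 0.533 and 0.574 FPKM in the libraries labelled knockout (difference -1.92, limma adjusted p = 0.0164). Among the libraries labelled knockout the highest value was 1.53 times the lowest for Asf1b and 1.08 times for Clspn. Clspn averaged under 1 FPKM in the libraries labelled knockout and so passed the filter through wild type. The other 3 were Hells, Dnmt1 and Prim2, the large primase subunit and partner of Prim1, with differences of -1.37, -1.23 and -0.997.

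Of the 29 other nucleotide synthesis enzymes, 2 fell and 2 rose, where 6.64% of all rows were lower and 2.43% higher. Their median was -0.02. The groups did not overlap in 7 with the libraries labelled knockout below and in 8 with these above. Over all rows these shares were 22.9% and 20.2%, so counts this small do not set the list apart. Dck, which salvages deoxycytidine, read 7.77, 8.96 and 7.50 FPKM in wild type and 2.14, 1.39 and 3.59 FPKM in the libraries labelled knockout (difference -1.48, limma adjusted p = 0.0454). Guk1, a guanylate kinase, read 114.5, 52.7 and 46.4 FPKM in wild type and 294.2, 157.8 and 129.9 FPKM in the libraries labelled knockout (difference 1.46, limma adjusted p = 0.0179). Guk1 was higher than its wild-type partner under each sterol, and the other gene that rose, the adenylosuccinate synthase gene Adssl1, had a difference of 1.12 (limma adjusted p = 0.0439). Of 16 E2F, RB and G1/S regulators, 4 fell and 0 rose (median -0.96). E2f8, a repressor of the E2F family, read 5.04, 4.89 and 4.23 FPKM in wild type and 0.833, 0.468 and 0.579 FPKM in the libraries labelled knockout (difference -1.82, limma adjusted p = 0.0195). Rbl1, an RB-related protein, and the cyclins Ccne1 and Ccne2, which drive entry into S phase, had differences of -1.54, -1.18 and -1.15. E2f8 and Rbl1 also averaged under 1 FPKM in the libraries labelled knockout and passed the filter through wild type.

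**Figure D5:**
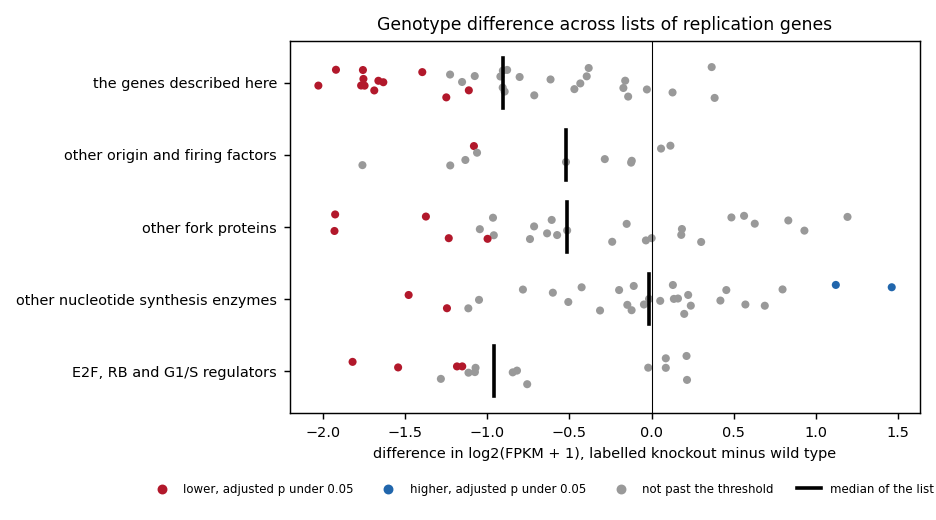
Difference in log2(FPKM + 1), labelled knockout minus wild type, of each tested gene in 5 lists, with a black bar at each list's median. The medians run from -0.91 for the members and -0.96 for the E2F, RB and G1/S regulators to -0.02 for the other nucleotide synthesis enzymes, the list that holds the 2 genes that rose.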

How the data were processed

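Messenger RNA of 6 libraries was read from 1 deposited table of FPKM per gene, a value the authors scaled by transcript length and library size. The submitters' processing notes name the aligner STAR 2.5.4b, the quantifiers Cufflinks 2.2.1 and Cuffdiff, and the build GRCm38; for annotation, strand setting, shared reads and filters, what was done is not given in the sources used here. Groups follow the sample labels. The series' design text describes other sterols and ethanol-treated cells. A check of the genotype labels is not reported here. In the table, 1061 rows merge overlapping symbols and 173 repeat a symbol.

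From the FPKM, log2(FPKM + 1) was computed, and differences on this scale understate those of low genes. limma 3.58.1 (R 4.3.3) was fitted with genotype and sterol as additive terms to the 12673 rows averaging at least 1 FPKM, with an intensity trend, 2-sided tests and Benjamini-Hochberg adjustment over all rows at 0.05. Residual degrees of freedom were 2 and prior ones 3.04. The fit was run on simulated data with independent noise, no sterol differences and no length trend. Such data check that set differences are recovered, and not the calls made here. Genotype by sterol has no replicate. Depth was estimated from low FPKM, of which 97.2% to 98.2% per library were whole multiples of 1 fragment within 0.05, and serves as description.

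Members and lists were chosen with earlier results of these data known. Values per library are given, in each functional class, for the 3 largest changes, the most abundant gene and genes whose sign differed between sterols by over 0.5 each way; of the other lists, for the largest change past the threshold in each direction and up to 2 more. Mki67, Dcn and Eif2s3y were read as markers. Coordinates and lengths are from GENCODE on GRCm38, promoters from RefSeq on GRCm38.p6. The alternatives were another pseudocount, other filters, scalings and priors, no sterol term, no length trend, protein-coding rows, and leaving out libraries; the rows of known length with the trend kept were chosen after seeing the data. Python 3.11.15, numpy 2.4.6, pandas 2.3.3 and matplotlib 3.10.9 were used.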

Additional observations from a re-analysis of the deposited data

Results flagged for a closer look

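In 3 members the genotype difference within a sterol went over 0.5 on the log2 scale in both directions. Gins1 differed by 1.00 under 20(OH)L3 and by -1.27 under 20(OH)Cholesterol. Rfc5 differed by 0.87 under 20(OH)L3 and by -0.51 under 20(OH)7DHC, and Pold1 by 1.06 and -0.74 under the same sterols. Each value sets 1 library against 1, so the change of sign between sterols was not tested.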

How the results depend on the processing

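In 20 alternatives, 0 members rose past the threshold. With both 20(OH)7DHC libraries left out, 2 members were higher at an unadjusted p of 0.05 by limma. The highest differences of Pold1 and Rfc5 in any alternative were 0.94 and 0.80. The number that fell was 12 in the fit reported and 11 to 14 in the alternatives other than those named here. It was 2 with no filter, 20 with no sterol term and 21 with protein-coding rows alone, and 0 to 12 with a library or a sterol's pair of libraries left out. The median over the members stayed between -1.01 and -0.79. Over all rows, the numbers lower and higher were 242 and 25 with no filter, 1336 and 735 with no sterol term, 1365 and 962 with protein-coding rows, and ranged from 0 to 871 and from 0 to 1139 with libraries left out. The number higher over all rows was 191 with a filter of 0.1 FPKM, 576 with quantile normalization and 485 with the length trend removed. Of the other pathway genes, 5 fell and 1 rose with the filter of 0.1 FPKM, 0 fell and 1 rose by limma with no filter (33 lower at an unadjusted p of 0.05), 1 rose with no intensity trend, 25 fell with no sterol term and 30 with protein-coding rows, and 0 to 9 fell and 0 to 6 rose with libraries left out. A fit with a library left out has 1 residual degree of freedom. Of the members, 4 that passed no threshold changed sign. Orc6 went to -0.21 with the length trend removed and ranged from -0.15 to 0.35 with libraries left out. In the same fits Gins4 ranged from -0.39 to 0.052, Dut from -0.086 to 0.083 and Chaf1b from -0.42 to 0.32; the highest value of each was without either or both 20(OH)7DHC libraries. The causes were not tested. The thinnest values are those of Pola1 and Orc1.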
